A study of Mus musculus with 9 samples.

Results

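Solute carriers (Slc) are the largest superfamily of membrane transporters. The genes described here were those measured on whole-genome arrays of mouse activated hepatic stellate cells (aHSCs), the collagen-producing cells of liver scars. Members were chosen by name and by measured detection: a probe was a member when its gene symbol was Slc followed by a digit and when its detection p-value, the fraction of negative controls on that array brighter than the probe, was under 0.05 on 3 or more of the 9 arrays. Slc2a1 and Slc16a3 were not included, nor were genes of the Slco family. Of 564 Slc probes for 326 symbols on the array, 266 probes for 185 genes were members, which is 47.2% of these probes against 45.4% of all 45281 gene probes. All 185 genes were found in RefSeq, and 1 had a newer name there (Slc24a6, now Slc8b1). In 4 cases (Slc9a3r1, Slc9a3r2, Slc4a1ap and Slc7a6os) the symbol belongs to a protein named after a carrier rather than to a carrier.

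The study asked how aHSCs that differ in expression of WT1, a zinc finger transcription factor of the embryonic mesothelium, differ in their transcriptome. All cells came from C57/Bl6 WT1GFP/+ mice, in which 1 WT1 allele carries green fluorescent protein (GFP). By the paper's account, in vivo work used males, whereas in vitro work used both sexes. The sex of the mice behind the cultured WT1-negative group is therefore not certain, and its part in comparisons with this group was not tested. The WT1-high group (GFP high, replicates 1, 8 and 29) and the WT1-intermediate group (GFP low, replicates 1, 8 and 30) were sorted by flow cytometry from the buoyant cell fraction of livers injured by repeated intraperitoneal carbon tetrachloride. The WT1-negative group (GFP negative, replicates 3, 11 and 14) was sorted from stellate cells that had been quiescent and were then activated for 7 days on plastic. Each sample had 1 array, and the labels do not say whether replicates came from separate animals, so p-values measure only the spread between these samples. By the paper's account, cells activated on plastic came from uninjured livers. The WT1-negative cells alone had been cultured, and the other groups alone came from injured liver. WT1 status, culture and injury therefore cannot be told apart in comparisons with this group. The age of the mice was not given in the labels, and the paper gives an age range only for mice used in injury models.

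Solute carriers move amino acids, sugars, ions, metals, vitamins and metabolites across the plasma membrane and the membranes of organelles, by facilitated diffusion, by exchange or by coupling to an ion gradient. In the liver, ferroportin (Slc40a1) and Nramp1 (Slc11a1) are known from macrophages, which recycle iron from red cells, whereas zinc importers (Slc39) and exporters (Slc30) act in opposite directions on cytosolic zinc. Activated stellate cells secrete matrix proteins, whose glycosylation depends on the nucleotide sugar carriers of the Golgi (Slc35).

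A gene's level is a log2 normalized intensity and, for genes with several member probes, is given for the probe with the highest mean over all arrays. Probes differ in brightness for reasons of sequence, so levels were compared between groups only within a probe. For Slc11a1, Slc6a4 and Slc38a2 the results turn on which probe is read, so the first 30 bases of each of their 50-base probes are shown, numbered from the highest to the lowest mean level. Slc11a1 was read by 4 probes whose sequences do not overlap, Slc6a4 by 2 probes, and Slc38a2 by 3 probes that were not called alike.
Slc11a1 probe 1: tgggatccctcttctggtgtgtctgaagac
Slc11a1 probe 2: cccagaacacctcaaacagaactgccacaa
Slc11a1 probe 3: gccctatcggtgtccttcatcatcaacctc
Slc11a1 probe 4: tatcaaggaggtgtgatcctaggctgtctc
Slc6a4 probe 1: gtcacagtcctaaagactatggtgcccaga
Slc6a4 probe 2: tggccacctgcagaggtcagagcagagtac
Slc38a2 probe 1: gagcaatgcgattgtgggcagtggaatcct
Slc38a2 probe 2: catggctatctggtaacatgtcaagtgtga
Slc38a2 probe 3: accggtttcaatgaaacaatgtatgtttgt

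Between 17253 and 19774 gene probes, and between 210 and 242 of the member probes, were detected on each array, and precision is limited by having 3 arrays a group. Of 10 stellate cell markers, Des, Ecm1, Pdgfrb and Reln were detected on all 9 arrays, and Colec11 and Hand2 on the 6 arrays from injured liver alone. Gfap, Rgs5 and Vipr1 were detected on no array and Lrat on 1, so the labelled cell type was only partly borne out by its markers. Of 7 myofibroblast markers, 6 were detected on all 9 arrays and Tagln on 7. Against culture, 3 of these 7 were called higher and 3 lower in WT1-high, and 2 higher and 3 lower in WT1-intermediate. Markers of other cell types moved with the groups. The 14 macrophage markers on the array include Lyz2 and Lyzs, which are 2 probes of 1 gene. For these 14, the summed level (log2 of their summed normalized intensity) was 12.67 to 13.51 for WT1-high, 14.38 to 15.10 for WT1-intermediate and 15.52 to 15.66 for WT1-negative samples, all 14 were detected on 6 or more arrays, and 10 were called lower in WT1-high within injured liver. For 9 mesothelial markers it was 14.73 to 14.94, 14.08 to 14.50 and 8.48 to 8.82. For 8 skeletal muscle markers it was 7.26 to 7.36, 7.28 to 7.48 and 12.63 to 13.24. For 8 hepatocyte markers it was 8.74 to 10.83, 9.07 to 10.53 and 7.34 to 7.59, and for 6 T and NK cell markers 9.03 to 9.72, 8.93 to 9.85 and 6.92 to 6.95. For 8 endothelial markers it was 9.96 to 10.40, 10.66 to 11.01 and 9.74 to 10.19, and 2 of them were called lower in WT1-high within injured liver (median log2 difference -0.72). The part of these other cells in any Slc difference was not tested, and in sorted bulk samples fewer cells of a type and less RNA per cell cannot be told apart.

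The members ranged from genes near the background to genes among the bright ones. Of the 266 probes, 157 were detected on all 9 arrays and 26 on exactly 3. The 26 just inside the rule had mean levels of 4.43 to 4.88, and the 26 Slc probes on exactly 2 arrays, just outside it, had 4.29 to 4.53. On no WT1-negative array were 36 members detected, of which 15 were detected on all 6 arrays from injured liver, among them Slc23a3, Slc6a4, Slc16a4, Slc39a10 and Slc30a4. Conversely, 6 member probes, among them those of Slc2a9, Slc12a1, Slc28a2 and Slc38a2, were detected on the 3 WT1-negative arrays alone, Slc38a4 on the WT1-high arrays alone, and Slc1a1 and Slc6a12 on the WT1-intermediate arrays alone. A probe that became a member through 1 group had to differ between groups, so the counts below are descriptions. The median SD between replicates of the member probes on the log2 scale was 0.20 for the WT1-high, 0.26 for the WT1-intermediate and 0.19 for the WT1-negative group.

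The first comparison was within injured liver. Of the 266 member probes, 17 passed an adjusted p of 0.05 between WT1-high and WT1-intermediate (6.39%, against 3.55% of all 20573 probes tested). In WT1-high, 3 were higher (1.13%, against 0.904% of all probes) and 14 lower (5.26%, against 2.64%). Of the 157 members on all 9 arrays, 9 passed and all 9 were lower (5.73%, against 3.82% of such probes called, 0.729% higher and 3.09% lower). The groups did not overlap for 60 members (22.6%, against 20.1%). Samples with the same number deviated together, and with the number as a random block 32 members passed (9 higher and 23 lower, 12% against 8.52% of all probes). With each array's median over probes detected on all arrays in place of quantile normalization the split was 1 higher and 22 lower (8.65%, against 5.87% of all probes), and with the median over all probes 22 higher and 1 lower (8.65%, against 13%). The members' share lay above that of all probes with the former and below it with the latter. The median of all probes moved from 0.05 to -0.18 and 0.45.

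In the comparisons with cultured cells, which share the WT1-negative arrays, the share of members called lay near that of all probes. For WT1-high, 157 members passed (59%, against 59.6%), 65 higher and 92 lower (24.4% and 34.6%, against 26.5% and 33.1%), with 95 of the 157 on all 9 arrays (60.5%, against 62.4%). For WT1-intermediate, 162 passed (60.9%, against 58%), 66 higher and 96 lower (24.8% and 36.1%, against 24.4% and 33.6%), with 99 of those on all 9 arrays (63.1%, against 60.4%). The groups did not overlap for 181 members (68%, against 68.4%) and 166 members (62.4%, against 65.5%). For WT1-intermediate the split was 101 higher and 60 lower with the median over detected probes (60.5%, against 56.1% of all probes) and 28 higher and 106 lower with the median over all probes (50.4%, against 53.5%). The median of all probes moved from -0.14 to 0.27 and -0.44. Among the rises in WT1-intermediate given below, those of Slc12a4, Slc16a6, Slc22a5, Slc25a3, Slc35b1, Slc38a2 probe 1, Slc39a8, Slc43a1, Slc44a1, Slc44a2 and Slc9a3r2 did not pass with the median over all probes (log2 differences of -0.05 to 0.69). The fall of Slc1a4 did not pass with the median over detected probes (-0.31, adjusted p = 0.31).

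**Figure D1:**
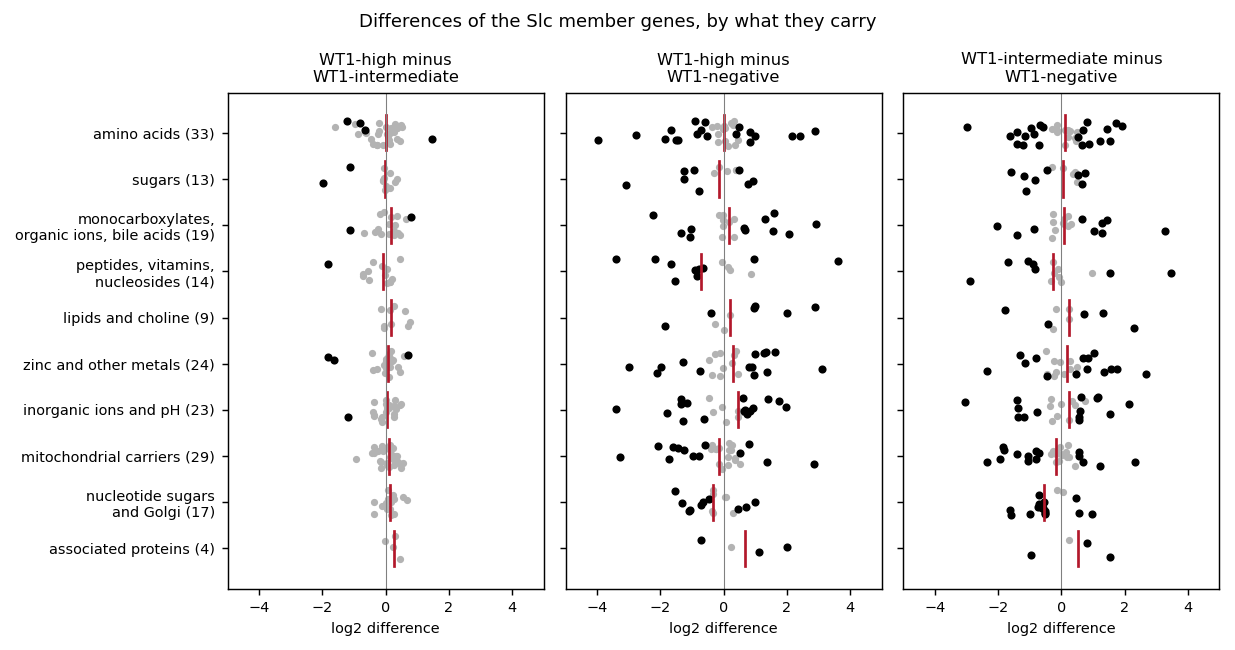
Log2 difference of each of the 185 Slc genes (x axis) by class (y axis, number of genes in brackets) in the 3 comparisons. Genes called at an adjusted p under 0.05 are in black, others in grey, and the median of each class is a red line. Classes follow family number and not the substrate of each gene, with proteins named after a carrier set apart. Genes were called in both directions in every class in each comparison with cultured cells, and the nucleotide sugar class had the median of -0.55 when WT1-intermediate was set against cultured cells.

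Among the genes lower in WT1-high, 3 encode metal and peptide transporters of macrophages and lysosomes. Slc11a1 (Nramp1, a proton-coupled metal transporter of the phagosome) had levels of 10.10, 10.17 and 9.42 on the WT1-high arrays, 11.98, 11.66 and 10.97 on the WT1-intermediate arrays and 12.02, 11.86 and 12.14 on the WT1-negative arrays. No WT1-high sample reached the lowest WT1-intermediate sample, whereas WT1-intermediate and cultured samples overlapped. The fall was 3.12-fold (log2 difference -1.64 ± 0.26 SE, adjusted p = 0.00748), and the other 3 probes gave -1.90, -1.80 and -1.71, all called. Slc40a1 (ferroportin, the only known iron exporter) had levels of 7.50, 8.29 and 8.51 on the WT1-high arrays, 9.23, 10.16 and 10.41 on the WT1-intermediate arrays and 10.98, 11.07 and 11.24 on the WT1-negative arrays, with no overlap between any of the groups. Within injured liver the fall was 3.58-fold (log2 difference -1.84 ± 0.31 SE, adjusted p = 0.00919). Slc15a3, a lysosomal peptide and histidine transporter, had levels of 8.37, 8.12 and 7.47 on the WT1-high arrays, 10.49, 9.67 and 9.30 on the WT1-intermediate arrays and 10.37, 10.13 and 9.99 on the WT1-negative arrays. The WT1-high samples lay below all others (log2 difference -1.83 ± 0.30 SE, adjusted p = 0.00779). These 3 genes kept their calls without each array in turn. With arrays scaled to the median of all probes their log2 differences were -1.07, -1.15 and -1.16, which did not pass (adjusted p = 0.084, 0.052 and 0.079), as was so for the other Slc11a1 probes. With no filter on dim probes Slc40a1, Slc15a3 and 2 of the 4 Slc11a1 probes did not pass, while the other 2 did. Beside these falls, the summed macrophage level of every WT1-high sample was below that of every WT1-intermediate sample, and its part in them was not tested.

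Other falls concerned sugar, calcium and amino acid transport. Slc37a1, a glucose-6-phosphate exchanger of the endoplasmic reticulum, had the largest difference of the member probes in this comparison (log2 difference -1.97 ± 0.39 SE, adjusted p = 0.0209), with levels of 5.17, 5.06 and 4.37 on the WT1-high arrays and 7.86, 6.23 and 6.42 on the WT1-intermediate arrays. Its call was lost when WT1-high replicate 8 or 29 was left out. It was also lost without background correction, with an offset of 50, with no filter and with the 2 compared groups alone (adjusted p up to 0.12). Slc2a6, a facilitative glucose transporter, had levels of 7.64, 7.50 and 7.29 on the WT1-high arrays and 8.80, 8.61 and 8.42 on the WT1-intermediate arrays. It was 2.2-fold lower (log2 difference -1.14 ± 0.20 SE, adjusted p = 0.0129), and its call was lost without WT1-intermediate replicate 1 or WT1-high replicate 29 and with no filter. Slc24a6, the sodium-calcium exchanger of mitochondria, had levels of 7.35, 7.73 and 7.37 on the WT1-high arrays, 9.00, 8.62 and 8.41 on the WT1-intermediate arrays and 8.74, 8.94 and 8.77 on the WT1-negative arrays. WT1-intermediate and WT1-negative samples overlapped, while WT1-high samples were all lower (log2 difference -1.19 ± 0.18 SE, adjusted p = 0.00527). Slc16a10, which carries aromatic amino acids, Slc7a2, which carries arginine and lysine, Slc6a2, the noradrenaline transporter, and Slc6a12, a betaine and GABA transporter, were lower as well. The log2 differences of the first 3 were -1.13, -0.82 and -1.22, and Slc6a12, detected in no WT1-high sample, was at least 1.32-fold lower. Their adjusted p-values lay between 0.0319 and 0.0387, and the calls were lost in 5, 7, 7 and 8 of the 9 fits that each left out 1 array, at adjusted p-values of up to 0.14. Slc6a12 met the rule through the WT1-intermediate arrays alone, so its lower level in WT1-high followed from the choice of members. For Slc7a11, the cystine-glutamate exchanger, the second of 3 probes was called (log2 difference -0.70 ± 0.17 SE, adjusted p = 0.0444), the first was not (log2 difference -0.65 ± 0.20 SE, adjusted p = 0.107), and the call was lost in 7 of those 9 fits, at adjusted p-values of up to 0.16. Of the falls in this paragraph, that of Slc6a2 alone passed with the median over all probes (log2 difference -0.84, adjusted p = 0.044).

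On the rising side, 3 genes were called. Slc6a4, the serotonin transporter, had levels of 7.04, 7.30 and 7.05 on the WT1-high arrays, 5.58, 5.76 and 5.66 on the WT1-intermediate arrays and 4.26, 4.20 and 4.22 on the WT1-negative arrays. The groups did not overlap and fell in the order of GFP, and the probe was not detected in any WT1-negative sample. Within injured liver the rise was 2.76-fold (log2 difference 1.46 ± 0.14 SE, adjusted p = 3.58e-04). Over cultured cells WT1-high was at least 5.76-fold higher, and WT1-intermediate at least 2.09-fold. The dimmer second probe, also detected in no WT1-negative sample, was at least 1.7-fold and at least 1.25-fold higher but was not called between the groups from injured liver (log2 difference 0.44 ± 0.26 SE, adjusted p = 0.418). Slc16a4, a member of the monocarboxylate transporter family, followed the same order, at 6.51, 6.53 and 6.55 on the WT1-high arrays, 5.57, 5.78 and 5.88 on the WT1-intermediate arrays and 4.43, 4.42 and 4.54 on the WT1-negative arrays. The rise within injured liver was called (log2 difference 0.79 ± 0.14 SE, adjusted p = 0.011), and the probe was again detected in no WT1-negative sample. Slc30a2, a zinc transporter of secretory vesicles, had levels of 5.40, 4.92 and 5.27 on the WT1-high arrays and 4.52, 4.50 and 4.44 on the WT1-intermediate arrays. It was detected in 3 WT1-high samples, 1 WT1-intermediate sample and no WT1-negative sample (log2 difference 0.71 ± 0.15 SE, adjusted p = 0.0287), and its call was lost in 6 of the 9 fits that each left out 1 array, at adjusted p-values of up to 0.087. With the median over detected probes Slc6a4 passed (log2 difference 1.25, adjusted p = 0.0021), while Slc16a4 and Slc30a2 did not (log2 differences 0.60 and 0.19, adjusted p = 0.065 and 0.65).

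**Figure D2:**
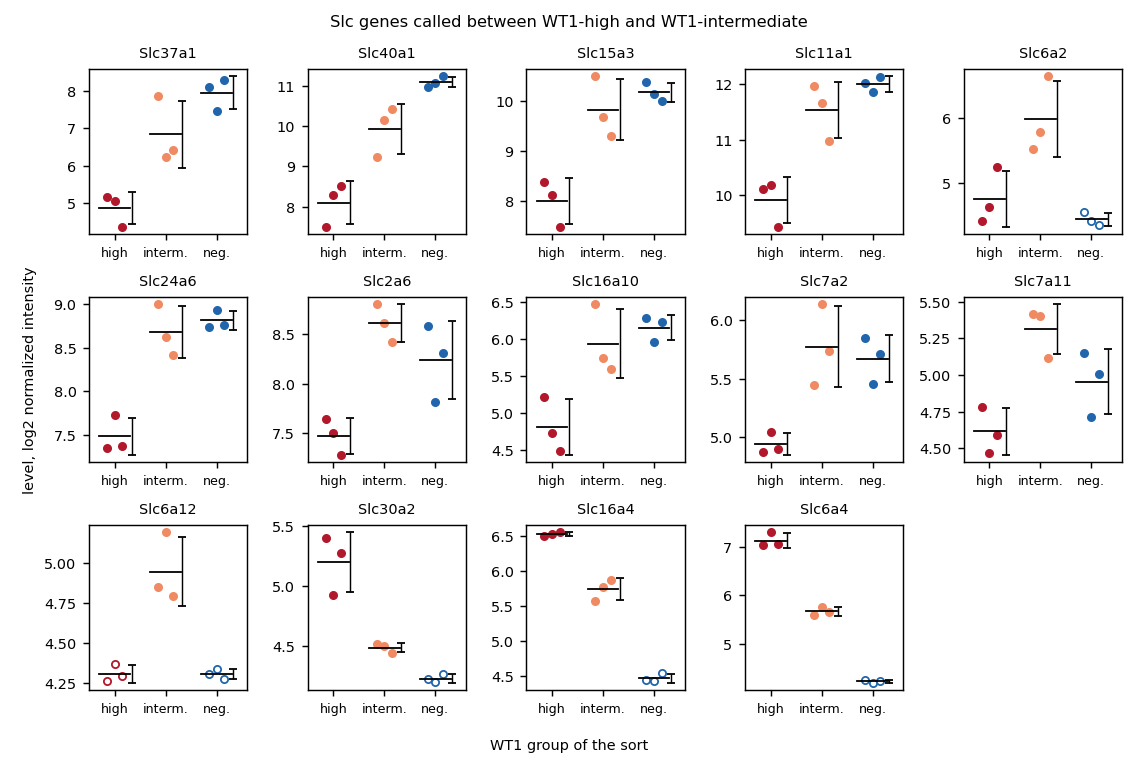
Log2 normalized intensity (y axis, its own scale for each gene) of the 14 Slc genes with a probe called within injured liver, each point 1 array, horizontal lines the group means and bars the SD (n = 3 a group), open symbols for groups in which the probe was detected on no array. For Slc30a2, Slc16a4 and Slc6a4 the WT1-high samples lay highest, and for the other genes they lay below the WT1-intermediate samples.

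The amino acid class was the largest (33 of 57 genes on the array were members). Classes follow family number and not the substrate of each gene, so this one holds Slc6a4 and Slc6a2, the serotonin and noradrenaline transporters. Against culture, 8 genes were higher and 11 lower in WT1-high, beside 26.5% and 33.1% of all probes. In WT1-intermediate 10 were higher and 11 lower, beside 24.4% and 33.6% of all probes. There the median over detected probes gave 17 higher and 6 lower and that over all probes 6 higher and 11 lower. Slc3a2, the heavy chain shared by several amino acid exchangers, had levels of 6.83, 7.41 and 7.67 on the WT1-high arrays, 7.51, 6.36 and 6.72 on the WT1-intermediate arrays and 5.40, 4.69 and 5.29 on the WT1-negative arrays. Both groups from injured liver lay above all cultured samples (4.51-fold and 3.32-fold higher, adjusted p = 1.14e-04 and 6.39e-04). Slc7a4, of the cationic amino acid transporter family, was also higher in both (log2 differences 2.41 ± 0.23 and 1.93 ± 0.23 SE). Among members detected in both groups the largest fall in WT1-high was that of Slc38a6, of the sodium-coupled neutral amino acid transporter family, at 5.16, 5.06 and 4.36 on the WT1-high arrays, 6.43, 5.62 and 5.47 on the WT1-intermediate arrays and 8.93, 8.45 and 9.15 on the WT1-negative arrays. Its log2 difference from culture was -3.98 ± 0.29 in WT1-high and -3.00 ± 0.29 SE in WT1-intermediate. Slc7a8, a light chain that pairs with Slc3a2, was lower where the heavy chain was higher, at 6.58, 6.13 and 5.46 on the WT1-high arrays, 8.65, 7.12 and 7.24 on the WT1-intermediate arrays and 9.29, 8.58 and 8.57 on the WT1-negative arrays. WT1-high lay below all cultured samples (log2 difference -2.76 ± 0.40 SE, adjusted p = 1.25e-04), while WT1-intermediate overlapped with culture (log2 difference -1.15 ± 0.40 SE, adjusted p = 0.0286) and lost its call when any of WT1-intermediate replicates 8 and 30 and WT1-negative replicate 3 was left out. Slc7a7, another partner of Slc3a2, was lower in both (log2 differences -1.86 ± 0.33 and -1.41 ± 0.33 SE). Slc1a4, a neutral amino acid exchanger, was called in WT1-intermediate (log2 difference -0.68 ± 0.23 SE, adjusted p = 0.027), a call lost in 4 of the 9 fits that each left out 1 array (adjusted p up to 0.099). Slc43a1, which carries large neutral amino acids, was higher by 1.00 and 0.86 on the log2 scale. Slc1a5 and Slc38a1, which carry glutamine, were not called against culture (log2 differences -0.30 ± 0.23 and -0.13 ± 0.16 SE in WT1-intermediate, and -0.16 ± 0.23 SE for Slc1a5 in WT1-high, where Slc38a1 was detected in no sample).

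For metals, 24 of 32 genes on the array were members, with 9 higher and 5 lower in each of the comparisons with culture, a balance that became 4 higher and 7 lower for WT1-intermediate when arrays were scaled to the median of all probes. Of 10 zinc importers (Slc39), 4 were higher and 1 lower in WT1-high, and 5 higher and 1 lower in WT1-intermediate cells. Of all probes 26.5% were higher and 33.1% lower in the former comparison and 24.4% and 33.6% in the latter. Slc39a4, the importer mutated in acrodermatitis enteropathica, had levels of 8.51, 8.46 and 8.16 on the WT1-high arrays, 7.62, 8.23 and 7.95 on the WT1-intermediate arrays and 5.46, 4.97 and 5.35 on the WT1-negative arrays. All samples from injured liver lay above all cultured ones (8.67-fold and 6.37-fold higher, adjusted p = 2.23e-07 and 9.56e-07), and a dimmer probe, detected in no WT1-negative sample, was called in WT1-high (at least 1.24-fold higher) but not in WT1-intermediate (adjusted p = 0.169). Slc39a8 was higher on both of its probes, by 1.62 and 1.03 on the log2 scale on the brighter and at least 5.5-fold and at least 4.94-fold on the dimmer, which was detected in no WT1-negative sample. Slc39a10 was likewise undetected in culture, and at least 2.06-fold and at least 2.02-fold higher in the other groups. Slc39a1 was higher by log2 differences of 1.35 ± 0.31 and 1.76 ± 0.31 SE. Of 7 zinc exporters (Slc30), 4 were higher in WT1-high, and 3 were higher and 1 lower in WT1-intermediate. Slc30a1, which acts at the plasma membrane, was higher in both groups at 7.04, 7.02 and 7.49 on the WT1-high arrays, 7.55, 7.46 and 7.39 on the WT1-intermediate arrays and 6.23, 5.39 and 6.04 on the WT1-negative arrays, and no values overlapped with culture (adjusted p = 3.79e-04 and 1.01e-04).

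The iron carriers Slc40a1 and Slc11a2 and the copper importer Slc31a1 were lower than in culture in both groups. Slc40a1 fell 7.99-fold in WT1-high and 2.23-fold in WT1-intermediate (adjusted p = 9.98e-06 and 0.0079). Slc11a1 was lower in WT1-high on all 4 probes (log2 difference -2.11 ± 0.26 SE, adjusted p = 4.24e-05, on the first), whereas in WT1-intermediate the 4 probes gave log2 differences of -0.47, 0.04, -1.33 and -0.62, of which the last 2 were called. Slc11a2, the importer of ferrous iron, had log2 differences of -1.27 ± 0.19 and -1.30 ± 0.19 SE on its first probe, and its second was not called (-0.35 and -0.24). Slc31a1, the high-affinity copper importer, had levels of 7.25, 7.83 and 7.95 on the WT1-high arrays, 7.29, 7.37 and 7.23 on the WT1-intermediate arrays and 9.73, 9.62 and 9.58 on the WT1-negative arrays, with both groups from injured liver below all cultured samples (3.91-fold and 5.08-fold lower). Slc31a2, its relative, was higher by 0.82 and 0.80 on the log2 scale, so the 2 copper genes were called in opposite directions. The summed macrophage level was highest in the cultured samples, but its members went both ways: 8 of 14 were called lower and 2 higher in WT1-high than in culture, and 4 lower and 5 higher in WT1-intermediate, the 5 being Clec4f, Ctss, Lyz1, Lyzs and Mpeg1. Lyz2, a second probe of the Lyzs gene, was not called in WT1-intermediate (log2 difference -0.76, adjusted p = 0.0753), against 1.14 for Lyzs. The part of the macrophage markers in these differences was not tested.

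**Figure D3:**
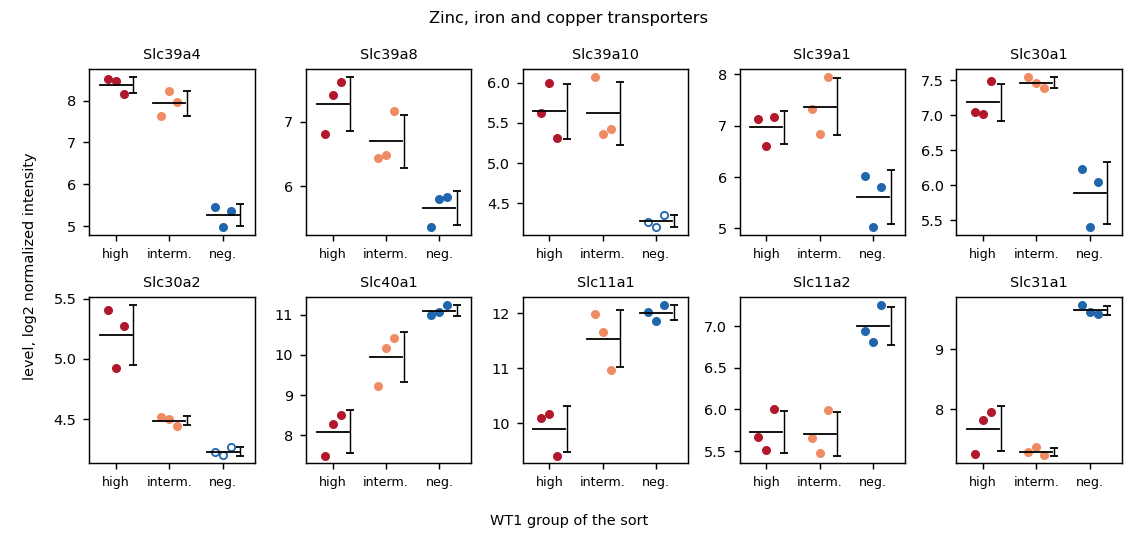
Log2 normalized intensity (y axis, its own scale for each gene) of 10 zinc, iron and copper transporters in the 9 arrays, each point 1 array, horizontal lines the group means and bars the SD (n = 3 a group), open symbols for groups in which the probe was detected on no array. Zinc transporters of the upper row lay lowest in WT1-negative cells, and Slc40a1, Slc11a2 and Slc31a1 lay highest there. For Slc11a1 the WT1-intermediate and WT1-negative samples overlapped.

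Among carriers of peptides, vitamins and nucleosides (14 of 20 genes), 2 were higher and 8 lower than culture in WT1-high, beside 26.5% and 33.1% of all probes. In WT1-intermediate 2 were higher and 5 lower, beside 24.4% and 33.6% of all probes. Both of the higher genes were of the ascorbate transporter family. Of the 3 member genes of this family, the remaining 1 was called lower in WT1-high and was not called in WT1-intermediate. Slc23a3 had levels of 8.38, 7.72 and 7.85 on the WT1-high arrays, 8.06, 7.76 and 7.72 on the WT1-intermediate arrays and 4.21, 4.55 and 4.34 on the WT1-negative arrays. It was detected in no cultured sample and rose at least 10.4-fold in WT1-high and at least 9.46-fold in WT1-intermediate, with no call between these groups (log2 difference 0.14 ± 0.19 SE, adjusted p = 0.766). Slc23a2, which takes up vitamin C, was higher by 0.96 ± 0.26 and 1.53 ± 0.26 SE on the log2 scale. Slc46a3, a lysosomal carrier, had levels of 6.40, 6.79 and 5.76 on the WT1-high arrays, 6.84, 7.31 and 6.38 on the WT1-intermediate arrays and 9.43, 9.87 and 9.90 on the WT1-negative arrays, a fall of 10.7-fold and 7.41-fold. Slc28a2, a sodium-coupled nucleoside importer, was detected in the WT1-negative samples alone, at 6.01, 5.65 and 6.33, and was at least 2.74-fold lower in the WT1-high and at least 2.72-fold lower in the WT1-intermediate group. It met the rule through the WT1-negative arrays alone, so lower levels elsewhere followed from the choice of members.

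Carriers of monocarboxylates, organic ions and bile acids (19 of 54 genes) had 7 higher and 4 lower than culture in WT1-high, beside 26.5% and 33.1% of all probes. In WT1-intermediate 6 were higher and 3 lower, beside 24.4% and 33.6% of all probes. The WT1-intermediate split became 11 higher and 2 lower with the median over detected probes and 3 higher and 4 lower with that over all probes. Slc10a6, which takes up sulphated steroids, had levels of 7.94, 8.34 and 7.38 on the WT1-high arrays, 8.02, 8.90 and 7.75 on the WT1-intermediate arrays and 4.96, 4.87 and 5.05 on the WT1-negative arrays. All samples from injured liver lay above all cultured ones (7.6-fold and 9.6-fold higher, adjusted p = 8.31e-06 and 4.58e-06). Slc22a5, the carnitine importer, was higher by 1.55 ± 0.17 and 1.29 ± 0.17 SE on the log2 scale, as was Slc16a9, another gene of the monocarboxylate family, by 1.60 ± 0.22 and 1.44 ± 0.22 SE on the log2 scale. Slc17a5, the sialic acid exporter of lysosomes, had levels of 5.45, 5.29 and 5.15 on the WT1-high arrays, 5.13, 5.67 and 5.63 on the WT1-intermediate arrays and 7.37, 7.64 and 7.53 on the WT1-negative arrays, a fall of 4.66-fold and 4.1-fold. The sugar class (13 of 31 genes), set by family number and holding Slc5a6 among its rises, had 3 higher and 5 lower in each group. The same shares of all probes stand beside these counts. In WT1-intermediate the balance became 4 higher and 2 lower with the median over detected probes and 0 higher and 4 lower with that over all probes. The largest fall in WT1-high was that of Slc37a1 (log2 difference -3.09 ± 0.39 SE, adjusted p = 4.85e-05), whose difference in WT1-intermediate lost its call in 4 of the 9 fits that each left out 1 array (log2 difference -1.11 ± 0.39 SE, adjusted p = 0.0304, at most 0.12 in those fits).

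In the lipid and choline class (9 of 11 genes), Slc27a3 and Slc27a1, both fatty acid transport proteins, went in opposite directions. Slc27a3 had levels of 7.59, 7.74 and 8.19 on the WT1-high arrays, 6.82, 7.14 and 7.70 on the WT1-intermediate arrays and 4.79, 5.47 and 4.55 on the WT1-negative arrays. It was 7.47-fold and 4.86-fold higher than culture. Slc27a1 was 3.58-fold and 3.46-fold lower than culture (adjusted p = 2.71e-06 and 4.03e-06). Slc44a1, a choline transporter, was higher on its brightest probe at 8.21, 8.36 and 8.54 on the WT1-high arrays, 7.07, 7.92 and 8.03 on the WT1-intermediate arrays and 6.40, 6.37 and 6.28 on the WT1-negative arrays. No value overlapped with culture, and WT1-high lay above WT1-intermediate in these samples without a call (log2 difference 0.70 ± 0.23 SE, adjusted p = 0.134).

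Ion and pH carriers (23 of 51 genes) had 9 higher and 7 lower than culture in WT1-high, beside 26.5% and 33.1% of all probes. In WT1-intermediate 8 were higher and 6 lower, beside 24.4% and 33.6% of all probes. With arrays scaled to the median of all probes, the WT1-intermediate split was 3 higher and 9 lower. Slc4a4, the electrogenic sodium bicarbonate cotransporter, was higher at 7.62, 7.54 and 6.79 on the WT1-high arrays, 7.74, 8.10 and 7.24 on the WT1-intermediate arrays and 5.23, 6.35 and 5.10 on the WT1-negative arrays (3.38-fold and 4.37-fold). Slc12a8, of the cation-chloride cotransporter family, was higher by 1.99 ± 0.23 and 1.54 ± 0.23 SE on the log2 scale, and Slc4a3, an anion exchanger, by 1.41 ± 0.18 and 1.15 ± 0.18 SE on the log2 scale. A second Slc4a3 probe, which shares 46 bases with the first, was called higher in both groups (1.69 and 1.33). The third Slc4a3 probe was called in WT1-high (0.47) but not in WT1-intermediate (0.21, adjusted p = 0.234). Slc9a9, the sodium-proton exchanger of endosomes, had the largest fall in WT1-intermediate among members detected in both groups (log2 difference -3.05 ± 0.15 SE, adjusted p = 4.46e-08), with levels of 4.43, 4.35 and 4.41 on the WT1-high arrays, 4.74, 4.72 and 4.80 on the WT1-intermediate arrays and 7.79, 7.58 and 8.03 on the WT1-negative arrays. In WT1-high, where the probe was detected in no sample, it was at least 9.55-fold lower than culture, and no call was made within injured liver (adjusted p = 0.247). The potassium-chloride cotransporter Slc12a7 was lower (log2 differences -1.15 in WT1-high and -1.17 in WT1-intermediate), while Slc12a4 of the same group was higher (0.85 and 0.55), the last value losing its call when any of WT1-intermediate replicate 8, WT1-negative replicate 3 and WT1-negative replicate 14 was left out.

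Mitochondrial carriers (29 of 41 genes, all of family Slc25) had 4 higher and 9 lower than culture in WT1-high, beside 26.5% and 33.1% of all probes. In WT1-intermediate 5 were higher and 10 lower, beside 24.4% and 33.6% of all probes. The WT1-intermediate split became 8 higher and 9 lower with the median over detected probes and 1 higher and 14 lower with that over all probes. Slc25a5, the adenine nucleotide translocase and the brightest of the class, had levels of 11.88, 11.76 and 11.73 on the WT1-high arrays, 12.21, 11.89 and 11.83 on the WT1-intermediate arrays and 12.04, 11.92 and 12.10 on the WT1-negative arrays. It was not called in WT1-high (log2 difference -0.23 ± 0.15 SE, adjusted p = 0.199) or WT1-intermediate (log2 difference -0.04 ± 0.15 SE, adjusted p = 0.828). Slc25a3, the phosphate carrier, was higher by 1.38 ± 0.20 and 1.22 ± 0.20 SE on the log2 scale, and Slc25a25, a calcium-regulated carrier of ATP and phosphate, had the largest rise of the class at 9.21, 9.29 and 9.49 on the WT1-high arrays, 8.24, 9.04 and 9.05 on the WT1-intermediate arrays and 6.40, 6.65 and 6.33 on the WT1-negative arrays (7.31-fold and 4.97-fold). Slc25a45 had the largest fall, at 6.35, 6.77 and 5.63 on the WT1-high arrays, 7.54, 7.41 and 6.59 on the WT1-intermediate arrays and 9.48, 9.57 and 9.51 on the WT1-negative arrays (9.68-fold and 5.06-fold lower). Slc25a36, which carries pyrimidine nucleotides, and Slc25a10, the dicarboxylate carrier, had log2 differences of -1.71 and -1.59 in WT1-high and of -1.94 and -1.83 in WT1-intermediate.

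Nucleotide sugar and Golgi carriers (17 of 22 genes) had 12 lower and 3 higher than culture in WT1-intermediate, with a median log2 difference of -0.55 against -0.14 over all probes, of which 33.6% were lower and 24.4% higher. In WT1-high 7 were lower and 3 higher, with a median of -0.34 against -0.10 over all probes, of which 33.1% were lower and 26.5% higher. With arrays scaled to the median of detected probes 10 were lower and 3 higher in WT1-intermediate, and with the median of all probes 13 were lower and 0 higher. Slc35d2 and Slc35a3 had the largest falls. Slc35a3, which carries UDP-N-acetylglucosamine, had levels of 5.30, 5.19 and 5.01 on the WT1-high arrays, 5.07, 4.88 and 4.78 on the WT1-intermediate arrays and 6.48, 6.41 and 6.59 on the WT1-negative arrays, and both groups lay below culture (log2 differences -1.33 ± 0.15 and -1.58 ± 0.15 SE). Slc35b1, a carrier of the endoplasmic reticulum and the brightest of the class, was higher by 1.00 ± 0.21 and 0.96 ± 0.21 SE on the log2 scale. Of the proteins that only carry a transporter's name, Slc9a3r1 (NHERF1, a scaffold beneath apical membranes) had levels of 11.86, 11.59 and 11.46 on the WT1-high arrays, 11.24, 11.24 and 11.05 on the WT1-intermediate arrays and 9.80, 9.62 and 9.46 on the WT1-negative arrays, and was higher in both groups than in culture (4.04-fold and 2.93-fold), as was its relative Slc9a3r2 (log2 differences 1.13 and 0.83). Mesothelial markers moved with these differences, and their part in them was not tested.

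Of the 60 genes with several member probes, 4 had probes called in opposite directions in WT1-high against culture and 5 in WT1-intermediate against culture, so no direction is given for these genes. Slc38a2, a sodium-coupled neutral amino acid transporter, was in both sets. Its probe 2 had levels of 10.22, 10.58 and 10.44 on the WT1-high arrays, 10.49, 10.53 and 10.61 on the WT1-intermediate arrays and 7.88, 6.80 and 7.75 on the WT1-negative arrays, with both groups from injured liver far above culture (7.65-fold and 8.38-fold, adjusted p = 2.03e-06 and 1.82e-06). Probe 1 had 9.70, 9.37 and 8.99 on the WT1-high arrays, 10.47, 10.45 and 9.79 on the WT1-intermediate arrays and 8.84, 8.93 and 9.23 on the WT1-negative arrays and was called in WT1-intermediate (log2 difference 1.24 ± 0.23 SE, adjusted p = 8.55e-04) but not in WT1-high (log2 difference 0.35 ± 0.23 SE, adjusted p = 0.208). Probe 3, printed last among the sequences above, was the opposite: it was detected only in the WT1-negative samples, at 4.65, 4.73 and 4.99, near the background, and was at least 1.18-fold lower in WT1-high and at least 1.17-fold lower in WT1-intermediate, both called. Probe 3 met the rule through the WT1-negative arrays alone. Its lower levels elsewhere followed from the choice of members, so its calls are not separate evidence of an opposite direction. For Slc16a6, of the monocarboxylate family, probe 1 was higher in WT1-intermediate than in culture (log2 difference 1.04 ± 0.27 SE, adjusted p = 0.00708) and probes 2 and 3 were lower (log2 differences -2.08 and -2.16). Slc44a2, a choline transporter, had log2 differences of 0.70, -0.34 and -0.79 on its 3 probes in WT1-intermediate, where the first lost its call in 6 of the 9 fits that each left out 1 array. Slc20a1, a phosphate importer, had 0.73 and -0.54 in WT1-high. Slc6a6, the taurine transporter, had -1.42 and 0.60 in WT1-intermediate.

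**Figure D4:**
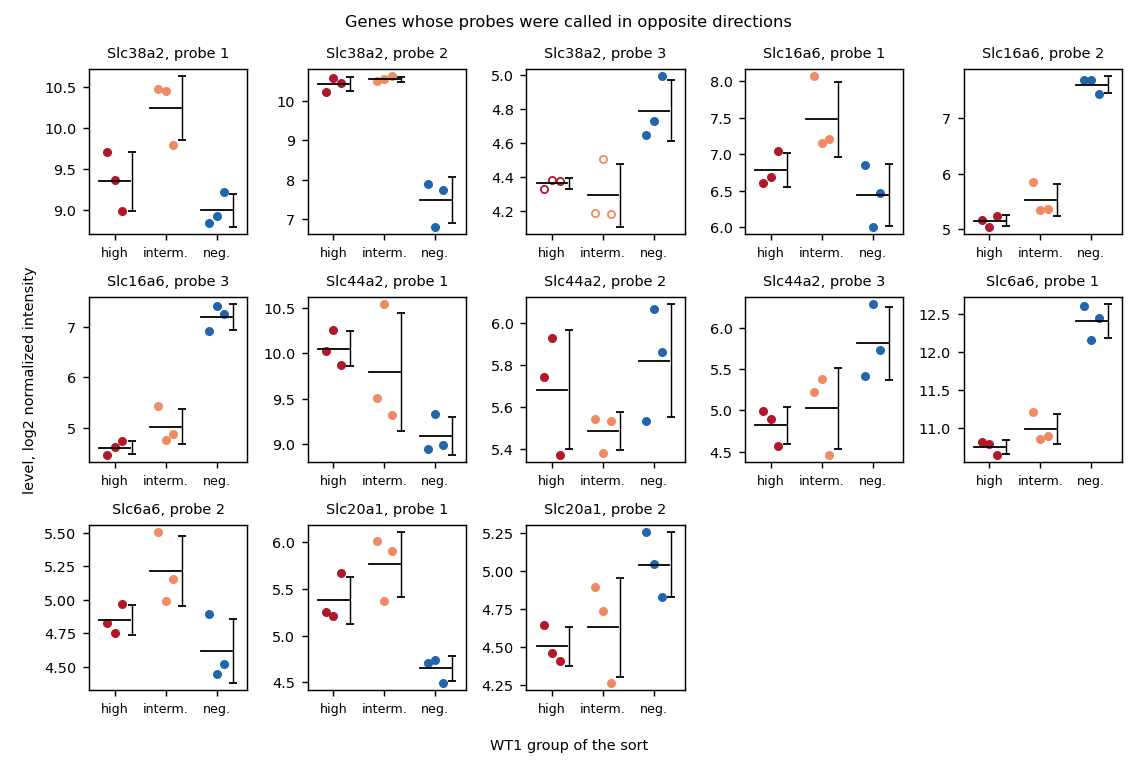
Log2 normalized intensity (y axis, its own scale for each probe) in the 9 arrays for every member probe of 5 genes with probes called in opposite directions, numbered by mean level, each point 1 array, horizontal lines the group means and bars the SD (n = 3 a group), open symbols for groups in which the probe was detected on no array. Slc38a2 probe 2 lay lower in the cultured than in the other samples, whereas probe 3 was detected in WT1-negative samples alone, through which it met the rule.

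Promoter sequences were searched for elements known from amino acid starvation and metal responses, since amino acid and zinc carriers are textbook targets of these responses. RefSeq promoter windows (GRCm38.p6) were found for 148 of the 185 genes, and the 250 bases before each start were searched on both strands. TGATGNAA, the core of the C/EBP-ATF response element, was found in 4 of these genes (2.70%) and in 3.91% of all 27025 genes with a window. The 4 genes were Slc7a11, Slc7a7, Slc9a9 and Slc23a3, and they did not move alike: against culture their log2 differences in WT1-intermediate were 0.49, -1.41 and -3.05 for the first 3, while Slc23a3 was at least 9.46-fold higher. TGCNCNC, which covers the core of the metal response element with a freer base, was found in 52.7% of the members and 47.2% of all genes, and in 15 of the 20 metal carriers with a window. A match is a description of letters and not of a bound site. The windows of Slc7a11, which holds the first motif on both strands, and of Slc23a3, detected in no cultured sample, are shown with the motif in capitals, on the minus strand at chr3:50443614-50443863 and chr1:75133891-75134140.
Slc7a11: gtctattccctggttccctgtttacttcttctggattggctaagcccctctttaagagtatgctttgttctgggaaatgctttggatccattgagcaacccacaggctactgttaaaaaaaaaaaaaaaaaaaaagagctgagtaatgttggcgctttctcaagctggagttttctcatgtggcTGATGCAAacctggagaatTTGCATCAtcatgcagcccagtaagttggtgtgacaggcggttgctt
Slc23a3: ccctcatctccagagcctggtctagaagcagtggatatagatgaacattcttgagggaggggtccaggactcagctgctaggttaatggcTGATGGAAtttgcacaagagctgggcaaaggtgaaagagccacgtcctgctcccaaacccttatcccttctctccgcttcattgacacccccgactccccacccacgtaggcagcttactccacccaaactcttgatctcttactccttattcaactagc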

How the data were processed

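Total RNA of sorted cells was hybridised to Illumina MouseWG-6 v2.0 BeadChips, 1 array per sample, for 3 WT1-high, 3 WT1-intermediate and 3 WT1-negative samples. The authors deposited mean bead intensities per probe as exported from BeadStudio, with no background correction or normalization. The deposited detection p-values were used for 8 arrays. One column of intensities carries the number 29 where the label of the remaining WT1-intermediate sample says 30, and was taken as that sample because its name marks the GFP low gate. Its detection p-values were computed from its negative control probes, a rule that made the same calls as the deposited values on the other 8 arrays. In all, 91 other columns of per-sample values were not used.

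Intensities were background corrected against 936 negative control probes (normexp, offset 16), quantile normalized and log2 transformed with limma 3.58.1 in R 4.3.3, in the order of the study's methods. Probes detected at p under 0.05 on 3 or more arrays were tested (20573 of 45281) in 1 linear model of the 3 groups (6 residual and 5.19 prior degrees of freedom) with two-sided moderated tests, with Benjamini-Hochberg adjustment across every tested probe. An adjusted p under 0.05 is called higher or lower. For probes undetected throughout a group, the fold is a bound against the higher of its own level and the lowest level among detected probes on each array. The steps were tested on simulated data.

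Genes were placed in classes by family number, so a class can hold genes with other substrates than its name. The genes named are, per comparison, the 12 largest rises and 12 largest falls without overlap, the brightest of each class, every gene called within injured liver, genes with probes called in opposite directions, and a list of 64 genes of which 51 had a member probe. Slc4a3, Slc12a7, Slc31a2 and Slc35a3 were added after their values were seen. The members and lists were chosen with earlier results of these data known. Deviations from the group means correlated at 0.35 between the samples numbered 1, at 0.34 between those numbered 8 and at 0.47 between 29 and 30, against -0.39 to 0.034 between other pairs, so the numbers were taken to pair the samples. Alternatives covered the normalization, background, offset, filter, samples in the fit, array weights, replicate block, a 2-fold rule and leaving out each array. Wt1 is not analysed here, and 2 member genes are not reported by name. Promoter windows came from RefSeq (GRCm38.p6).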

Additional observations from a re-analysis of the deposited data

How the results depend on the processing

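Between WT1-high and WT1-intermediate the count of 17 member probes (6.39%, against 3.55% of all probes) became 11 without background correction (4.14%, against 2.48%), 11 with an offset of 50 (4.14%, against 2.84%), 10 with probes detected on all 9 arrays (6.37%, against 4.2%), 8 with no filter (4 higher and 4 lower, 3.01%, against 0.74%), 10 with the 2 compared groups alone (3.76%, against 1.65%), 32 with the replicate number as a random block (12%, against 8.52%) and 30 with the replicate block that pairs 29 and 30 (11.3%, against 8.05%). The fixed block gave 18 (6.77%, against 3.97%). In that fit 29 and 30 were not paired, so the difference came from the samples numbered 1 and 8 alone. Leaving out 1 array gave 10 to 19, namely 11 for WT1-high replicate 8 (4.14%, against 1.6%), 10 for WT1-high replicate 29 (3.76%, against 1.8%) and 11 for WT1-negative replicate 14 (4.14%, against 2.21%), the only ones to move it by over 1.5 times. The 157 probes called for WT1-high against culture became 95 on all 9 arrays (60.5%, against 62.5%), 86 with a 2-fold rule (32.3%, against 29.5%), 160 with the replicate block (60.2%, against 59.8%) and 148 to 164 without 1 array. The 162 for WT1-intermediate became 99 (63.1%, against 60.5%), 75 (28.2%, against 27.6%), 165 (62%, against 58.1%) and 134 to 161. For WT1-intermediate against culture, 4 log2 differences of named genes that were called in the main or the alternative run changed sign. They were Slc12a2 to -0.17 and Slc44a2 to -0.046 with the median over all probes, a scaling chosen after seeing the data. With median scaling they were Slc35a5 to 0.11 and Slc7a1 to 0.61. Sign changes of differences called in neither run were not counted. The cause was not tested. Of 131 calls of named genes, 84 kept call and direction in every alternative run and 114 when each array was left out. Between 38.1% and 43.7% of all probes were detected on each array, so a member detected in no sample of a group carries a bound rather than a fold.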
